A study of Mus musculus with 6 samples.

Results

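The glucocorticoid axis of the liver was followed through 8 genes: the glucocorticoid receptor Nr3c1, the hormone-activating enzyme Hsd11b1, and the hormone-responsive genes Fkbp5, Tsc22d3, Mt1, Mt2, Sgk1 and Zbtb16. They were taken by symbol from a table of 21956 genes, each symbol matched 1 row, and all 8 passed the filter on low counts that left 13197 genes. RNA came from the livers of 6 mice. In the knockout group (Stingfl/fl Cdh5-Cre+, n = 3) both copies of the innate immune gene Sting1 are flanked by loxP sites and a Cre recombinase under the endothelial Cdh5 promoter removes the flanked part. The controls (Stingfl/fl Cdh5-Cre-, n = 3) were littermates with the same floxed alleles and no Cre. All 6 mice ate chow up to an age of 8 weeks and were then given CDAHFD for 10 weeks. This high-fat diet lacks choline, replaces protein with defined L-amino acids and induces steatohepatitis (MASH). No mouse on another diet and none with Cre alone was among them, so that Cre and the deletion cannot be told apart. The sources used here do not give the time of day at collection.

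As background, the adrenal hormone corticosterone enters cells and binds the glucocorticoid receptor, which is held in the cytoplasm by an Hsp90 chaperone complex and moves to the nucleus once bound. There it binds DNA at glucocorticoid response elements and raises or lowers the transcription of nearby genes. Hsd11b1 regenerates active hormone from its inert keto form inside hepatocytes. In the liver the receptor is known for driving gluconeogenesis and amino acid breakdown and for restraining inflammation.

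Total counts ran from 16704664 to 21025461 per library. Sting1 served as a check of the labels, at 240, 365 and 226 estimated counts in control replicates 1 to 3 and 106, 114 and 80 in knockout replicates 1 to 3. The labels name sinusoidal endothelial cells beside liver, but the libraries were those of whole liver: 6 hepatocyte markers summed to between 84771 and 131135 CPM (counts scaled to the library total), and 7 endothelial markers to between 313 and 385. Control replicate 2 stood apart, with the lowest hepatocyte sum and a mean correlation with the other libraries of 0.953 against 0.966 to 0.974. In whole liver, fewer cells of a type and less RNA per cell cannot be told apart.

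For Sgk1 and Tsc22d3 every knockout liver lay below every control liver in TPM, with knockout means at 48.0% and 51.1% of the control mean. TPM is a transcript level scaled to gene length. For the other 6 the groups overlapped, whether the knockout mean was lower (Zbtb16, Nr3c1, Mt2 and Mt1) or higher (Hsd11b1 and Fkbp5). Apart from each other in TPM were 2 of the 8 members, against 20.0% of all tested genes. In CPM scaled by the trimmed mean of M values (TMM) it was 1 of the 8, Sgk1, against 16.4% (7.25% higher and 9.14% lower). In that scaling the knockout means of Sgk1 and Tsc22d3 were at 55.4% and 58.3% of the control mean. In log2(TPM + 1) the median difference of all genes was itself -0.20. No member passed edgeR's quasi-likelihood test after Benjamini-Hochberg adjustment over all genes, and neither did any other gene (0 of 13197). In edgeR 1419 genes, 10.8% of those tested, had an unadjusted p under 0.05, and 2 members were among them, both lower, against a background of 7.00% for lower genes. DESeq2 called 127 genes, 0.920% of those it tested, among them Sgk1, and limma-voom called 0. The 3 mice of a group are labelled as biological replicates.

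**Figure D1:**
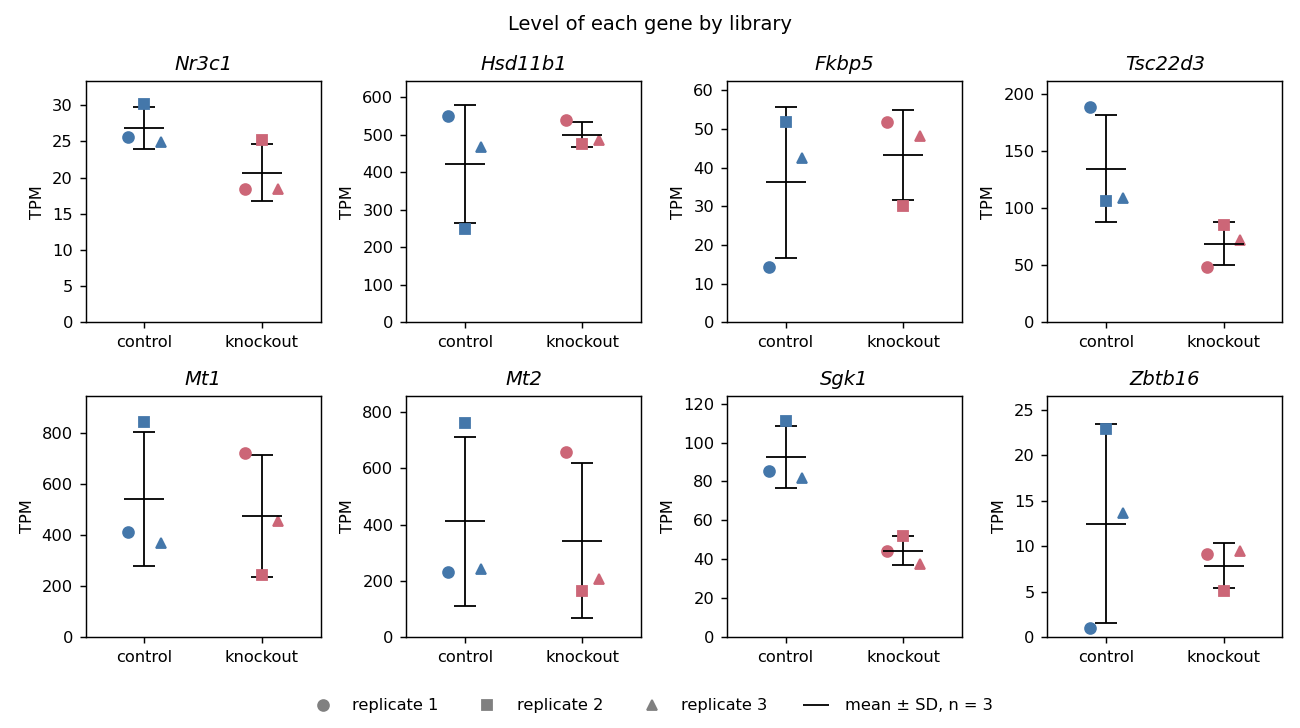
Level of each of the 8 genes in TPM (vertical axes, linear from 0) in 3 control and 3 knockout livers, 1 point per library with the replicate number as its shape and bars for the mean and SD. For Sgk1 and Tsc22d3 all knockout points lie below all control points, and for the other 6 genes the groups overlap.

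Taken per length, the 2 metallothioneins and Hsd11b1 were the most abundant members. In control livers the mean level was 542 TPM for Mt1, 423 TPM for Hsd11b1 and 411 TPM for Mt2, whose libraries overlapped one another. Tsc22d3 followed at 135 TPM and Sgk1 at 92.7 TPM, and the lowest Tsc22d3 value, 106 TPM, lay below the highest Sgk1 value, 111 TPM. Fkbp5 at 36.2 TPM and Nr3c1 at 26.9 TPM overlapped as well, and Zbtb16 was lowest at 12.5 TPM. All 3 of its control libraries were below those of Nr3c1, and 1 of them lay within the range of Fkbp5.

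The groups overlapped for the receptor itself. Nr3c1 (ENSMUSG00000024431, GRCm38 chromosome 18, 39410545 to 39519421, minus strand) had 25.6, 30.2 and 24.9 TPM in control replicates 1 to 3 and 18.4, 25.2 and 18.5 TPM in knockout replicates 1 to 3. Knockout replicate 2 reached the control range, and the other knockout libraries lay below it. In edgeR with TMM scaling the log2 fold change of knockout against control was -0.07 with a standard error (SE) of 0.15 and a 95% interval of -0.41 to 0.28 (adjusted p = 0.885). The difference depended on scaling: without TMM, on library totals, it was -0.28, where the median of all genes was -0.21, and in log2(TPM + 1) it was -0.37, where the median of all genes was -0.20. Measured against those medians Nr3c1 stood at -0.07 and -0.17.

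Hsd11b1, the activating enzyme, was at a like level in 5 livers and low in 1. Hsd11b1 (ENSMUSG00000016194, chromosome 1, 193221634 to 193264075, minus strand) had 551, 248 and 469 TPM in the control and 539, 476 and 487 TPM in the knockout libraries. Control replicate 2 was the lowest by far, and the remaining 5 lay between 469 and 551 TPM. The log2 fold change was 0.43 (SE 0.36, 95% interval -0.39 to 1.26, adjusted p = 0.681 in edgeR). Without control replicate 2 it was 0.09. The sum over 6 hepatocyte markers, most of it from Alb, was also lowest in that library, at 84771 CPM against 108281 and 115656 in the other control libraries. The marker Hnf4a was not, with 257 TPM there against 187 and 213 TPM in the other control libraries. The part of this in the Hsd11b1 value was not tested.

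Sgk1 had the smallest p of the 8 genes. It encodes a serum- and glucocorticoid-regulated kinase that acts on ion transport and cell survival. Sgk1 (ENSMUSG00000019970, chromosome 10, 21882184 to 21999903, plus strand) had 85.3, 111 and 81.8 TPM in control replicates 1 to 3, a mean of 92.7 ± 16.0 (SD, n = 3). The knockout libraries had 44.1, 52.1 and 37.4 TPM, a mean of 44.5 ± 7.37 (SD, n = 3). The highest knockout value was below the lowest control value by more than the SD of either group, and the groups were apart in TMM-scaled CPM too.

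The log2 fold change of Sgk1 was -0.85 (SE 0.18, 95% interval -1.27 to -0.43), which is 1.80-fold lower in the knockout. Its unadjusted p in edgeR was 0.00134, rank 49 of 13197 genes, and its adjusted p was 0.357. DESeq2 called it, with an adjusted p of 0.0123 and a log2 fold change of -0.84, against a background of 0.623% of genes called lower by that tool. Over the 16 other settings run, the value lay between -1.07 and -0.68 and the adjusted p between 0.0123 and 0.815. It was between -0.99 and -0.68 with any 1 library left out.

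RefSeq lists 6 transcription starts for Sgk1, and the 250 bases before each were searched on both strands for the full receptor palindrome, which is AGAACA, any 3 bases, and TGTTCT. The fifth start, at position 21993890, had a match beginning 189 bases before it. Of 32851 such windows over all genes in the RefSeq table, 3 held a match, or 0.00913%. The window is shown because Sgk1 is the member with the smallest p, with the palindrome in capitals (plus strand, GRCm38.p6, chr10:21993640-21993889, within the gene and outside its annotated exons).
Sgk1 promoter: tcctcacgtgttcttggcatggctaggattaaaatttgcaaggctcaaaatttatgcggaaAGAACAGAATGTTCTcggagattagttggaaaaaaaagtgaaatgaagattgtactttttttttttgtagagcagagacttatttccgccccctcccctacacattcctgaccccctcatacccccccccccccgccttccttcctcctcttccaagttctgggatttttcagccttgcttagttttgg
The palindrome contains the single site AGAACA and its reverse complement, and a single site on either strand occurred in 16.1% of all windows. Which start gave the Sgk1 reads cannot be read from gene totals, and a match of letters is no measure of binding.

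Tsc22d3 encodes GILZ, a leucine zipper protein induced by glucocorticoids that dampens inflammatory signalling. Tsc22d3 (ENSMUSG00000031431, chromosome X, 140539528 to 140600659, minus strand) had 189, 106 and 109 TPM in the control libraries and 48.5, 85.6 and 72.5 TPM in the knockout libraries. Control replicate 1 was far above the other control livers, and all knockout values were below all control values. In TMM-scaled CPM the groups overlapped, since knockout replicate 2 at 97.7 CPM lay above control replicate 2 at 85.4 CPM. The log2 fold change was -0.78 (SE 0.32, 95% interval -1.52 to -0.04), with an unadjusted p of 0.0415 and an adjusted p of 0.447 in edgeR. Without control replicate 1 it was -0.37, and without control replicate 2 it was -1.02. The windows of 250 bases before its 3 RefSeq starts held no receptor palindrome, and 1 of them held a single site. Fkbp5 and Hsd11b1 had 1 window each, which held neither the palindrome nor a single site. All 250 bases of the Hsd11b1 window lay in that gene's own annotated exons. The windows of the first and second Tsc22d3 starts held 73 and 137 bases of its annotated exons.

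For Fkbp5 and Zbtb16 the groups overlapped, and control replicate 1 was the lowest library. Fkbp5 encodes an Hsp90 co-chaperone that lowers the hormone affinity of the receptor and is itself induced by it, a short feedback loop. Fkbp5 (ENSMUSG00000024222, chromosome 17, 28399094 to 28517527, minus strand) had 14.3, 51.7 and 42.5 TPM in the control and 51.8, 30.1 and 48.1 TPM in the knockout libraries. Control replicate 1 was the lowest of the 6 and the other control livers lay within the knockout range. The log2 fold change was 0.54 (SE 0.43, 95% interval -0.47 to 1.55, adjusted p = 0.671 in edgeR). Without control replicate 1 it was 0.19.

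Zbtb16 encodes PLZF, a zinc finger transcription factor whose transcript rises with glucocorticoids in many cell types. Zbtb16 (ENSMUSG00000066687, chromosome 9, 48654297 to 48836222, minus strand) had 1.04, 22.8 and 13.6 TPM in the control and 9.11, 5.05 and 9.47 TPM in the knockout libraries. Among the control livers it had both the lowest and the highest value of the 6 libraries. In estimated counts control replicate 1 held 50, against 883 and 707 in the other control libraries, so that the low value does not rest on a handful of reads. The log2 fold change was -0.27 (SE 0.85, 95% interval -2.35 to 1.82, adjusted p = 0.921 in edgeR). Without control replicate 1 it was -0.79, with an unadjusted p of 0.012 and an adjusted p of 0.641, and without control replicate 2 it was 0.25.

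**Figure D2:**
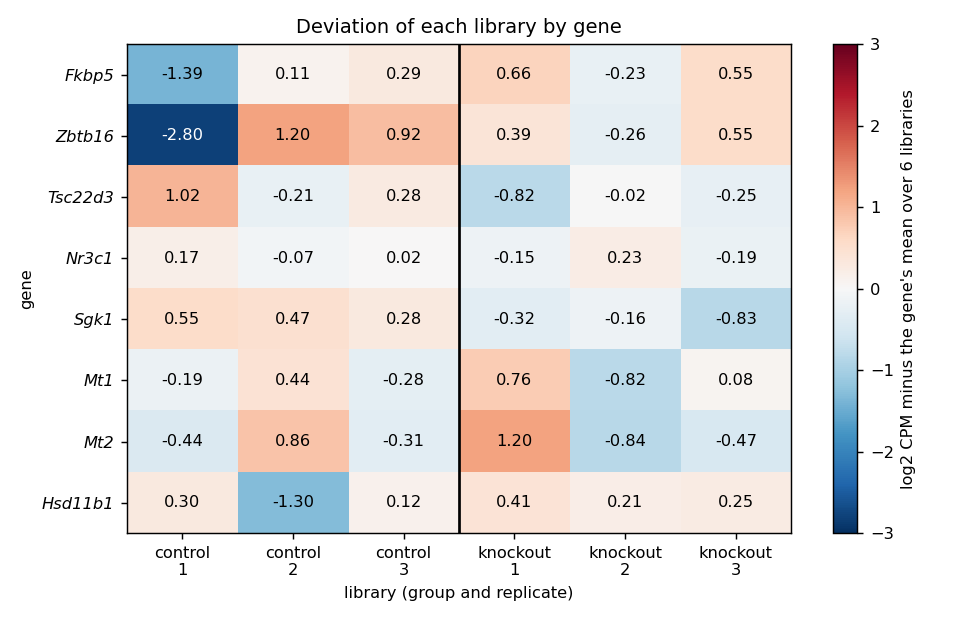
Each cell gives the log2 CPM (TMM-scaled) of a gene in a library minus that gene's mean over the 6 libraries, with genes as rows, libraries as columns and colour from blue (below the mean) to red (above it). Control replicate 1 stands at -1.39 for Fkbp5, -2.80 for Zbtb16 and 1.02 for Tsc22d3, and Sgk1 is above 0 in the 3 control and below 0 in the 3 knockout libraries.

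Control replicate 1 combined the lowest Fkbp5 and Zbtb16 with the highest Tsc22d3 and, in TMM-scaled CPM, the highest Sgk1. Over the 6 libraries Fkbp5 and Tsc22d3 ran in opposite directions, with Pearson's r of -0.88 (exact permutation p = 0.0208) and Spearman's rho of -0.83 (exact permutation p = 0.0583). Of 28 pairs of members none passed after Benjamini-Hochberg adjustment, and for this pair the adjusted values were 0.292 and 0.411 in the exact permutation test. Without the 2 libraries farthest from the Fkbp5 median, control replicate 1 and knockout replicate 1, r was -0.17. These held the lowest and the highest Fkbp5 value, so whether the relation rested on those livers cannot be told. Fkbp5 and Zbtb16 had r of 0.90 (exact permutation p = 0.0542, adjusted 0.334) and rho of 0.43 (exact permutation p = 0.419, adjusted 0.734), and r of 0.53 without the same 2 libraries. Groups of 3 are too small for a value within each group.

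The metallothioneins varied within both groups, and the groups overlapped. They are small cysteine-rich proteins that bind zinc and copper, and their genes respond to glucocorticoids, to metals through the factor MTF1, and to inflammation. Mt1 (ENSMUSG00000031765, chromosome 8, 94179082 to 94180327, plus strand) had 411, 845 and 369 TPM in the control and 723, 245 and 454 TPM in the knockout libraries. Mt2 (ENSMUSG00000031762, chromosome 8, 94172664 to 94173568, plus strand) had 232, 759 and 243 TPM in the control and 659, 163 and 208 TPM in the knockout libraries. For both genes control replicate 2 and knockout replicate 1 were the highest of the 6 and knockout replicate 2 was the lowest.

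The log2 fold change was 0.12 (SE 0.38, 95% interval -0.75 to 0.98) for Mt1 and 0.09 (SE 0.62, 95% interval -1.39 to 1.58) for Mt2, with adjusted p of 0.920 and 0.963 in edgeR. Both turned below 0 on library totals, at -0.14 and -0.20, and relative to the median of all genes there they stood at 0.07 and 0.01. Without knockout replicate 1 the values were -0.32 and -0.80, and without control replicate 2 they were 0.39 and 0.64. On library totals, the sum over 5 neutrophil markers, carried mostly by S100a8 and S100a9, was also highest in those 2 libraries. It was 50.3 CPM in knockout replicate 1 and 16.2 CPM in control replicate 2, against 8.15 to 12.7 CPM in the other 4. The TMM factor was higher in control replicate 2 than in control replicate 3. With TMM scaling, which was not applied to the sums, control replicate 2 may therefore no longer rank above control replicate 3. The single markers did not all share the order on library totals: S100a8 had 73 estimated counts in control replicate 3 and 54 in control replicate 2. Ly6g had 6 in knockout replicate 1, 3 in control replicate 1 and 0 in the other 4 libraries. Their part in the metallothionein levels was not tested.

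Mt1 and Mt2 lie 5513 bases apart in the same orientation, and their coding sequences of 186 bases each were identical at 79.6% of aligned positions. The sources used here do not say how reads shared by the pair were split, and an antisense gene, Gm45774, shares 432 exonic bases with Mt2, so that the split between the genes is uncertain. Over the 6 libraries Mt1 and Mt2 had r of 0.91 (exact permutation p = 0.00833, adjusted 0.233) and rho of 0.77 (exact permutation p = 0.103, adjusted 0.411). Without the 2 libraries farthest from the Mt1 median, knockout replicates 1 and 2, r was 0.83. The ratio of Mt1 to Mt2 in TPM ran from 1.11 to 1.77 in the control and from 1.10 to 2.19 in the knockout libraries. The mean log2 ratio was 0.53 ± 0.34 (SD, n = 3) and 0.62 ± 0.50 (SD, n = 3), and the two-sided exact permutation p was 1, where 3 against 3 cannot go below 0.1.

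The bases before the RefSeq start of each gene are shown because the pair moved together, with matches to the metal response element core in capitals (TGCGCNC or TGCACNC, both strands). At least 1 such match occurred in 21.4% of all 32851 windows. The Mt2 window, chr8:94172368-94172617, held 3 matches, at 223, 128 and 50 bases before the start, and the Mt1 window held 1, at 23 bases before it. Both are on the plus strand of GRCm38.p6, and for Mt1 the bases that GENCODE places in its exon were left off, which leaves chr8:94178839-94179081. GENCODE counts all 1246 bases of the Mt1 gene as exonic, and bases after the annotated start were not searched. Where transcription began cannot be read from gene totals, so the numbers of matches do not compare the promoters of the genes.
Mt2 promoter: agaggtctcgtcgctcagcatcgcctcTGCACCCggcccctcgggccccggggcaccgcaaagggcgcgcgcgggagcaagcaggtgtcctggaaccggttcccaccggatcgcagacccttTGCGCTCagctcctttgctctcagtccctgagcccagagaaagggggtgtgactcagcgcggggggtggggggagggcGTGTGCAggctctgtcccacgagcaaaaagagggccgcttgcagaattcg
Mt1 promoter: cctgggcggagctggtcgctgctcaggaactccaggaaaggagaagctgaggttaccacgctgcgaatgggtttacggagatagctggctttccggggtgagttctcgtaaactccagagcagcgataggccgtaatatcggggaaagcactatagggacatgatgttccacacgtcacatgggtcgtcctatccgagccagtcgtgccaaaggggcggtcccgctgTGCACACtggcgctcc
Neither window held the receptor palindrome or a single site.

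A second set of 24 genes known to respond to glucocorticoids in liver or elsewhere was read beside the members; it was drawn up with earlier results of these data known. None passed edgeR's adjusted test. Of the 24, 15 were below 0 and 9 above, with a median log2 fold change of -0.19 against 0.01 for all genes tested. At an unadjusted p under 0.05, 8 were lower and 1, Cd163, was higher, where 7.00% and 3.75% of all genes were. The groups did not overlap for 8 of the 24, all lower, against 9.14% of all genes in that direction. DESeq2 called 5 of the 24, all lower: Ddit4, Igfbp1, Cebpd, Cdkn1a and Pdk4, the last named after its values were seen. Of all genes that DESeq2 tested, 0.623% were called lower.

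Ddit4, an inhibitor of mTORC1, stood at 17.7 ± 0.614 TPM (SD, n = 3) in control and 5.34 ± 0.929 TPM in knockout livers, a log2 fold change of -1.50 (SE 0.21). Igfbp1, a hepatocyte-secreted binding protein for insulin-like growth factors that insulin represses, stood at 482 ± 64.9 and 126 ± 60.3 TPM (SD, n = 3), a log2 fold change of -1.71 (SE 0.35). Cebpd, a transcription factor of the acute response, stood at 13.3 ± 2.19 and 5.75 ± 1.18 TPM (SD, n = 3). Cdkn1a, the cell cycle inhibitor p21, stood at 76.1 ± 45.9 and 24.9 ± 4.22 TPM (SD, n = 3), with log2 fold changes of -0.97 for Cebpd and -1.28 for Cdkn1a. These 4 shared an adjusted p of 0.357 in edgeR, and DESeq2's adjusted p was 2.17e-05, 0.000265, 0.0177 and 0.00541 in that order.

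Among metabolic targets, chosen here after their values were seen, Tat, which starts tyrosine breakdown, had a log2 fold change of -0.77 (SE 0.25, adjusted p = 0.381 in edgeR) and all its knockout libraries were below all control libraries in TMM-scaled CPM. Pdk4, which limits pyruvate oxidation, had -1.04. Pck1, the first committed enzyme of gluconeogenesis, had -0.15, and Tdo2 and Sds, which break down tryptophan and serine, had 0.39 and 0.89. The 24 genes held values on both sides of 0, as the members did.

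**Figure D3:**
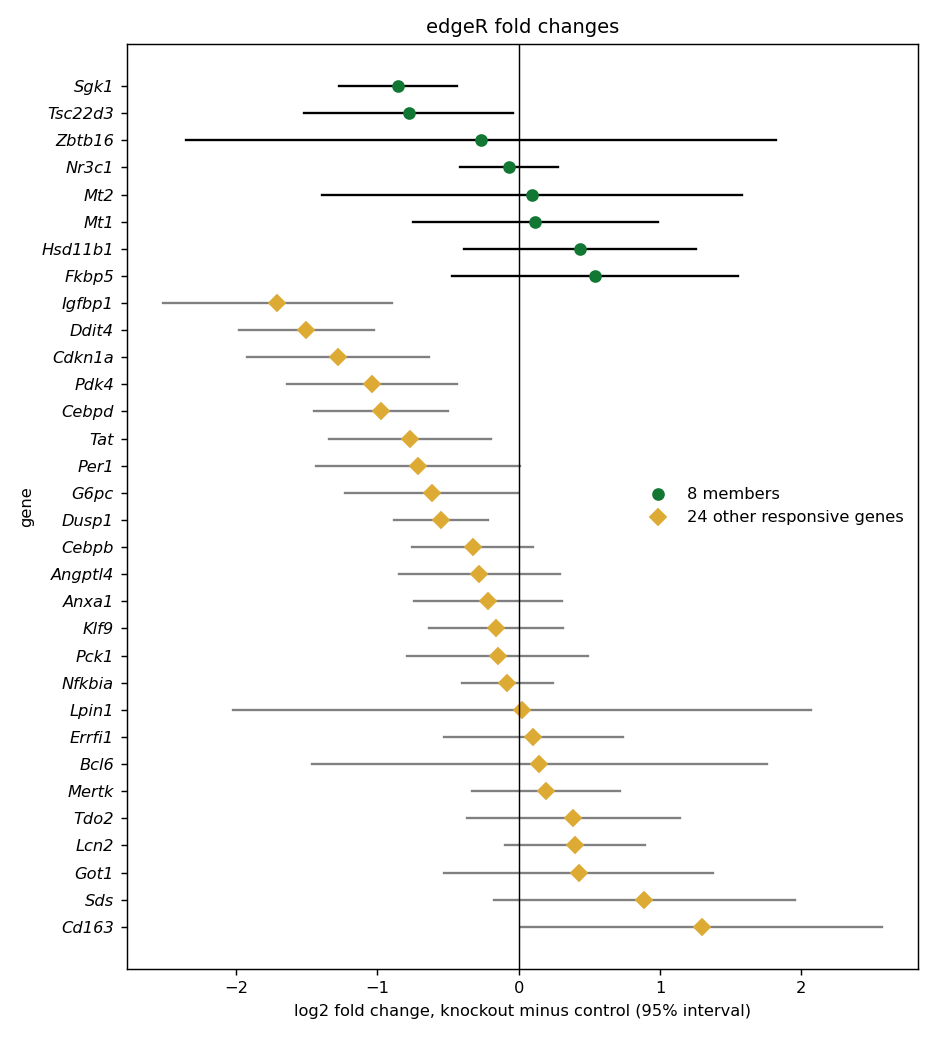
Log2 fold change of knockout against control in edgeR (horizontal axis) with its 95% interval for the 8 members (circles) and 24 other responsive genes (diamonds), ordered by value within each set (vertical axis). The intervals of Sgk1 and Tsc22d3 lie below 0, those of the other 6 members span 0, and Igfbp1 at -1.71 and Ddit4 at -1.50 lie farthest below 0.

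Genes that carry or assist the receptor held no gene that passed the adjusted test. Of 10 chaperones and co-chaperones of the receptor complex 9 were above 0, with a median log2 fold change of 0.18, and none had an unadjusted p under 0.05. Hspa8, an Hsp70 chaperone, had 0.57, and Fkbp4, the co-chaperone that takes the place of Fkbp5 once hormone is bound, had 0.46. Stip1, which links Hsp70 to Hsp90, had 0.35 and Dnaja1 had 0.31. On library totals 5 of the 10 were below 0, with a median of -0.03 where that of all genes was -0.21.

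Of 11 coregulators 7 were below 0, with a median of -0.12. At an unadjusted p under 0.05 in edgeR 2 were lower, where 7.00% of all genes were. Ppargc1a, a coactivator of gluconeogenesis, stood at 8.56 ± 1.01 TPM (SD, n = 3) in control and 4.03 ± 1.29 TPM in knockout livers, a log2 fold change of -0.79 (adjusted p = 0.392 in edgeR). The acetyltransferases Crebbp and Ep300 had -0.33 and -0.25, and the chromatin remodeller Smarca4 had 0.25.

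Of 9 genes for hormone supply and clearance 8 were tested, 5 above 0 and 3 below, with a median of 0.17. Abcb1a, an efflux pump, had a log2 fold change of -0.61 with an unadjusted p of 0.0165 in edgeR. It was the member of this set under 0.05, where 7.00% of all genes were lower. H6pd, which supplies the cofactor of Hsd11b1, had 0.26, Serpina6, the corticosteroid-binding globulin of plasma, had 0.50, and Srd5a1, a steroid reductase, had 0.38. Hsd11b2, which inactivates the hormone in kidney, had at most 1 estimated count in any library.

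Of 9 metal-handling genes 7 were tested, 4 above 0 and 3 below, with a median of 0.14. The zinc exporter Slc30a1 had a log2 fold change of 0.46 and the zinc importer Slc39a14 had 0.49. Their adjusted p was 0.381 and 0.461 in edgeR. The groups did not overlap in TMM-scaled CPM for either, where 7.25% of all genes were apart and higher. The importer Slc39a4 had 0.14 and the metal-sensing factor Mtf1 had 0.14. On library totals 5 of the 7 were below 0. Mt3 had at most 2 estimated counts in any library, and Mt4 was at 0 in all 6.

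Of the paralogs of members, Sgk2 and Sgk3 had log2 fold changes of 0.23 and -0.31, and Tsc22d1 and Tsc22d2 had -0.11 and -0.60. Tsc22d2 had an unadjusted p of 0.0168 and an adjusted p of 0.385 in edgeR. The difference between Sgk1 and its paralogs was not tested.

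Clock genes differed between the same livers, and several responsive genes oscillate over the day. Of 14 clock genes 8 were higher and 3 lower at an unadjusted p under 0.05 in edgeR, where 3.75% and 7.00% of all genes were. None passed after adjustment in edgeR. DESeq2 called 4 of the 14, where it called 0.920% of all genes: Cry2, Ciart, Per2 and Tef. Their log2 fold changes in edgeR were 0.84, 2.28, 1.31 and 1.05. Per1, a clock gene that glucocorticoids also induce, had -0.71. Acute-phase genes were above 0 in 10 of 10, with Saa2 at 0.97, Saa1 at 0.87, Orm2 at 0.67 and Itih3 at 0.39. Their median log2 fold change was 0.45. The 6 hepatocyte markers were all above 0 too, with a median of 0.42. At an unadjusted p under 0.05 in edgeR 3 acute-phase genes and 1 hepatocyte marker were higher, where 3.75% of all genes were. DESeq2 called 1 acute-phase gene, Saa2 (adjusted p = 0.0392), and no hepatocyte marker, where it called 0.920% of all genes. The difference between these sets was not tested. The part of clock, acute-phase or hepatocyte genes in the values of the members was not tested.

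On library totals, the marker sums of cycling and stellate cells did not overlap between the groups, and those of cholangiocytes and Kupffer cells did. The gap for stellate cells (526 against 528 CPM) and the overlap for Kupffer cells (603 against 612 CPM) were narrow. TMM factors were lower in every knockout than in every control library. With TMM scaling, which was not applied to the sums, the stellate and Kupffer cell results may therefore turn around. No single marker of the cell types named here passed the adjusted test in edgeR. DESeq2 called 3 cycling markers, where it called 0.623% of all genes lower. Of the other markers it called Cd8a, 1 of 6 T and NK cell markers, where it called 0.920% of all genes. Cd8a was higher in the knockout, with a log2 fold change of 1.64 in edgeR. Its adjusted p was 0.0153 in DESeq2 and 0.367 in edgeR. All 6 T and NK cell markers were above 0. No single stellate marker was apart in TMM-scaled CPM. Summed over 5 markers, cycling cells had 48.5 to 152 CPM in control and 24.8 to 40.4 CPM in knockout livers, with 5 of 5 markers below 0. Stellate cell markers had 528 to 1772 CPM and 477 to 526 CPM, with 5 of 6 below 0, and cholangiocyte markers had 499 to 1555 CPM and 226 to 508 CPM, with 5 of 5 below 0. Kupffer cell markers had 334 to 612 CPM in control and 603 to 761 CPM in knockout livers, with 6 of 6 above 0. None of these markers was at 0 in any library. Their part in the lower Sgk1 and Tsc22d3 was not tested.

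Genes whose profile was most like that of a member were sought among 10030 genes of mean CPM 5 or more, by Pearson's r of log2 CPM over the 6 libraries, which shares depth and scaling between genes. For Sgk1 these were Itga1, Man1a2 and Rc3h2, each with r of 0.99. For Tsc22d3 they were Phlpp1, Atrn and Naa20, with r of 0.98, and for Fkbp5 they were Wdr81, Rpa2 and Rars2, with r of 0.97 to 0.98. These r were high by selection, as the highest of 10030 values over only 6 libraries. Between the groups, the unadjusted p in edgeR was 0.00824 to 0.0380 for the genes like Sgk1. It was 0.233 to 0.621 for those like Tsc22d3 and Fkbp5. The choice by profile shaped these p-values, since Sgk1 itself was apart between the groups, so they are no separate result.

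**Figure D4:**
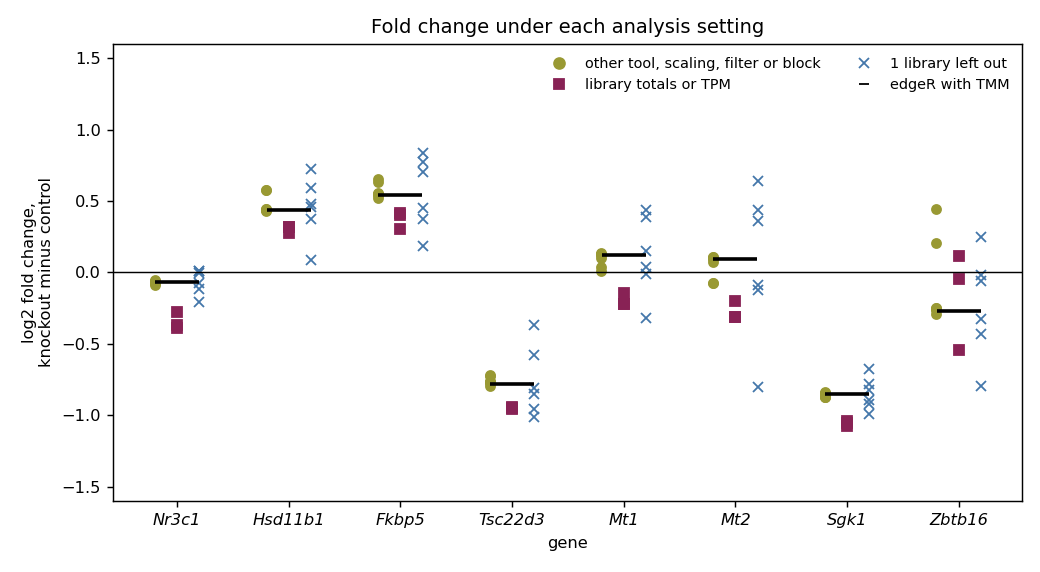
Log2 fold change of knockout against control (vertical axis) for each member (horizontal axis) in edgeR with TMM (black bars), other tools, scalings, filters or the block (circles), library totals or TPM (squares) and 1 library left out (crosses). Sgk1 lies between -1.07 and -0.68 and Tsc22d3 between -1.02 and -0.37, Hsd11b1 and Fkbp5 lie above 0, and the other 4 members have values on both sides of 0.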

How the data were processed

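Bulk polyA RNA sequencing of 6 livers was deposited as 1 table. It holds an estimated count and a TPM value for each gene, both of which the authors computed. RSEM 1.3.3, HISAT2 2.2.1, DESeq2 1.38.3 and fastp 0.23.2 were used with GRCm38 according to the submitters' processing notes, which give no order. Per the labels, libraries were strand-specific; whether counting used strand, and the annotation release, were not found in the sources used here. The deposited estimated counts (6.93% of them not whole) were rounded. The deposited TPM values, scaled to length and a fixed total, served for levels and for an alternative.

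Knockout was compared with control in edgeR 4.0.16 (TMM, filterByExpr, quasi-likelihood test, robust fit, prior count 2 for log2 CPM, Benjamini-Hochberg at 0.05 over all genes). Intervals at 95% came from the fit. Marker sums used total counts. Alternatives were DESeq2 1.42.0, limma-voom (limma 3.58.1), the replicate number as a block, fits without 1 library, changed filters and scalings, and limma on TPM after adding 1 or 0.1 and taking log2, for genes of mean TPM of at least 1. The count fits were checked on simulated data, where the share of false calls was above the 0.05 set in edgeR, limma-voom and DESeq2. It was highest in DESeq2. False were 18 of 173 calls in edgeR, 14 of 164 in limma-voom and 41 of 211 in DESeq2. Positions came from GENCODE M21 and promoter windows from RefSeq (GRCm38.p6), which held 6 of the 8 members. R 4.3.3, Python 3.11.15, Biopython 1.88 and matplotlib 3.10.9 were used.

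The members and lists were chosen with earlier results of these data known. Genes named are the members, Sting1, up to 4 of each list with the smallest p, and 3 like genes for each of the 3 members with the smallest p; others are said to be chosen after their values were seen, or are a marker or background gene.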

Additional observations from a re-analysis of the deposited data

How the results depend on the processing

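Sgk1, Tsc22d3, Hsd11b1 and Fkbp5 kept their direction in all 16 alternatives, as did Sting1 (-1.54 to -1.04). DESeq2 moved Sgk1 (-0.84) and Sting1 (-1.28) past the threshold and called 127 genes where edgeR called 0. Direction turned for genes near 0. In limma-voom Mt2 was -0.0724 and Zbtb16 0.45; on library totals Mt1 was -0.14 and Mt2 -0.20; in log2(TPM + 1) they were -0.22 and -0.31; in log2(TPM + 0.1) they were -0.22 and -0.31 and Zbtb16 was 0.11. The cause was not tested. With the replicate number as a block, 5 genes were called, Mt2 was -0.0760, Zbtb16 0.20, and no member was called; same-numbered libraries did not all deviate together (correlations of 0.115, -0.00678 and 0.133), so the numbers were not taken as pairs, and not every library correlated best with its own number. With 1 library left out the ranges were -0.21 to 0.0130 for Nr3c1, -0.32 to 0.44 for Mt1, -0.80 to 0.64 for Mt2, -0.79 to 0.25 for Zbtb16, -0.17 to 0.33 for the log2 ratio of Mt1 to Mt2, and 0 to 2 genes called. The number of the 24 other responsive genes that were lower at an unadjusted p under 0.05, counted over alternatives chosen after seeing the data, was 6 to 11. With 3 livers a group, the width of the intervals for Zbtb16 and Mt2 limits what can be seen.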
